A study of Rattus norvegicus with 6 samples.

Results

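The miR-17-92 cluster is a run of 6 microRNA hairpins, and 10 of its mature strands were followed here in rat cardiac fibroblasts and in the exosomes that these cells released. The strands were taken by name: both strands of miR-17, miR-18a, miR-20a and miR-92a-1 and the 3p strands of miR-19a and miR-19b. All 10 were listed among the 728 mature microRNAs (miRNAs) of the count table, and all 10 passed the filter on low counts. The tested material was 3 libraries of exosomes, small membrane vesicles pelleted by ultracentrifugation from medium that the fibroblasts had conditioned for 48 h in 1% serum depleted of exosomes. They were set against 3 libraries of the fibroblasts themselves. The cells of both groups came from the hearts of newborn Wistar rats aged 1 to 2 days, were grown as primary cultures in 10% serum, and carried no drug treatment or genetic change in the labels. Conditioning for 48 h in 1% serum is recorded for the samples of both groups. The column of 1 exosome library carried no number and is called the unnumbered exosome library. The labels do not say that the libraries came from separate cultures, so each p-value speaks of the spread among the sampled libraries alone, and part or all of that spread may be technical.

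The cluster is transcribed as a single primary RNA that the nuclear enzyme Drosha cuts into hairpins and the cytoplasmic enzyme Dicer cuts into pairs of strands. One strand of a pair, the guide, is usually kept in an Argonaute protein and represses messenger RNAs that match its seed, the bases next to its 5′ end. MYC and E2F factors activate the cluster, which drives proliferation in many cell types and is amplified in some lymphomas; in mice its loss causes defects of the lung and of the ventricular septum. miR-17 and miR-20a are known to repress the cell cycle inhibitor p21, and miR-18a and miR-19 the matrix proteins CTGF and thrombospondin-1. The deposited counts hold no measure of proliferation, so the cluster's common description as a proliferation cluster was not tested.

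In RefSeq's GRCr8 annotation the 6 hairpins lay on the plus strand at chr15:98587848-98588632, a stretch of 785 bases, in the order Mir17, Mir18a, Mir19a, Mir20a, Mir19b1 and Mir92a1. Mature sequences of all 10 strands were taken from RefSeq and are shown because the strands fall into families by seed. Capitals mark the seed, bases 2 to 8 from the 5′ end. The guides, named as such by common usage and not by these counts, were these:
rno-miR-17-5p: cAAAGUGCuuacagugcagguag
rno-miR-20a-5p: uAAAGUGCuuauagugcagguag
rno-miR-18a-5p: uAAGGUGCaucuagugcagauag
rno-miR-19a-3p: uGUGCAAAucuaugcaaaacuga
rno-miR-19b-3p: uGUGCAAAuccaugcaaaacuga
rno-miR-92a-3p: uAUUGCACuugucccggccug
The strands from the opposite arms of these hairpins were these:
rno-miR-17-1-3p: aCUGCAGUgaaggcacuugugg
rno-miR-18a-3p: aCUGCCCUaagugcuccuucu
rno-miR-20a-3p: aCUGCAUUacgagcacuuaca
rno-miR-92a-1-5p: aGGUUGGGauuugucgcaaugcu

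The guides held 4 seeds, AAAGUGC in miR-17-5p and miR-20a-5p, AAGGUGC in miR-18a-5p, GUGCAAA in both miR-19 strands and AUUGCAC in miR-92a-3p. Counted from 1 at the 5′ end, with the base of the first-named strand first, miR-17-5p and miR-20a-5p differed by C1U and C12U. miR-19a-3p and miR-19b-3p differed by U11C alone. Reads of such near-identical strands may have been divided between them by the authors' counting, and their separate values are uncertain. A second cluster on the X chromosome encodes the identical mature miR-17-5p, miR-19b-3p and miR-92a-3p, so the counts of these 3 strands cannot be assigned to a locus. The strands were 21 to 23 bases long, and their levels are compared without correction for length.

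Sequencing was far shallower in exosomes. Totals lay between 113129 and 120224 miRNA counts in the exosome libraries and between 2439559 and 12508651 in those of fibroblasts. Most of this depth in exosomes went to miR-873-3p, with 84.9% to 90.1% of the exosome counts and 0.391% to 2.37% of the fibroblast counts, which left 11825 to 18164 exosome counts for all other miRNAs. The 6 fibroblast and mesenchymal marker miRNAs, among them miR-143-3p, miR-199a-3p and miR-21-5p, were all detected in every library and made up 0.114% to 0.861% of exosome counts and 34.1% to 38.5% of fibroblast counts. The 6 cardiomyocyte markers, among them miR-1-3p and miR-208a-3p, summed to 0.00252% to 0.0116% in exosomes, with 3 or 4 of them at 0, and to 0.00791% to 0.0172% in fibroblasts. The 2 strands of the endothelial miR-126a summed to 0.084% to 0.0966% and 0.01% to 0.0152%, and the 5 listed blood markers to 0.0168% to 0.023% and 0.0057% to 0.0299%, in exosomes and fibroblasts in this order; their part in the results below was not tested.

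The 10 strands together had 121, 81 and 60 counts in exosome libraries 1, 2 and unnumbered, against 16198, 42555 and 4811 counts in fibroblast libraries 1, 2 and 4. This was 0.101% (95% Clopper-Pearson interval 0.0835 to 0.12), 0.0716% (0.0569 to 0.089) and 0.0504% (0.0385 to 0.0649) of the exosome counts. Of the fibroblast counts it was 0.254% (0.25 to 0.258), 0.34% (0.337 to 0.343) and 0.197% (0.192 to 0.203). The share averaged 0.0742% ± 0.0252 in exosomes and 0.264% ± 0.072 in fibroblasts (SD, n = 3 each), with no overlap between the groups. With miR-873-3p left out of the totals the order turned round, to 0.579% ± 0.0804 in exosomes and 0.267% ± 0.0703 in fibroblasts (SD, n = 3 each), again with no overlap. The direction of the cluster's summed share therefore depended on the denominator. PCR copies are not independent molecules, so the intervals hold counting error and nothing else. In such pooled RNA fewer vesicles or cells with a strand and less of it in each cannot be told apart.

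Levels are therefore given as CPM, a count relative to library size, after scaling by the trimmed mean of M-values (TMM), which sets the bulk of the miRNAs level between libraries. The unnumbered exosome library stood apart in this scaling, with a TMM factor of 0.432 against 1.34 and 1.13 in exosome libraries 1 and 2, so that 1 count there gave more CPM. Fibroblast library 2 stood apart the other way, at 1.99 against 0.968 and 0.792 in fibroblast libraries 1 and 4. Among fibroblast libraries it had the highest miR-92a-3p share of all counts, 0.265%, but the lowest miR-92a-3p level in CPM, 1330. In CPM, miR-92a-3p, which in endothelium is known to repress the integrin alpha-5 subunit, was the most abundant strand of the cluster in both groups. It had 78, 39 and 31 raw counts in exosome libraries 1, 2 and unnumbered, and 12530, 33110 and 4102 in fibroblast libraries 1, 2 and 4. Its level averaged 464 ± 150 CPM in exosomes and 1830 ± 433 CPM in fibroblasts (SD, n = 3 each). By count it ranked 41st, 70th and 53rd among all exosome miRNAs and 42nd, 36th and 45th among all fibroblast miRNAs.

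The other 9 strands were less abundant in both groups. They summed to 43, 42 and 29 raw counts in exosomes, against 3668, 9445 and 709 in fibroblasts. By count they ranked between 118th and 631st in exosomes and between 145th and 653rd in fibroblasts. For comparison, the median count per miRNA was 8, 7 and 3 in exosome libraries 1, 2 and unnumbered. It was 318.5, 1509 and 107.5 in fibroblast libraries 1, 2 and 4. In exosomes the order of mean level after miR-92a-3p was miR-92a-1-5p at 109 CPM, miR-19b-3p at 103, miR-17-1-3p at 41, miR-18a-5p at 32.3, miR-17-5p at 28.9, miR-18a-3p at 26.5, miR-20a-3p at 24.9, miR-20a-5p at 15.5 and miR-19a-3p at 4.68. In fibroblasts it was miR-18a-3p at 143 CPM, miR-19b-3p at 93.7, miR-17-1-3p at 42.4, miR-92a-1-5p at 39.5, miR-17-5p at 38.4, miR-19a-3p at 35.6, miR-18a-5p at 25.9, miR-20a-5p at 16.8 and miR-20a-3p at 11.4. In each group miR-92a-3p stood clear of the next strand in every library, and each later pair of neighbours overlapped in its library values.

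**Figure D1:**
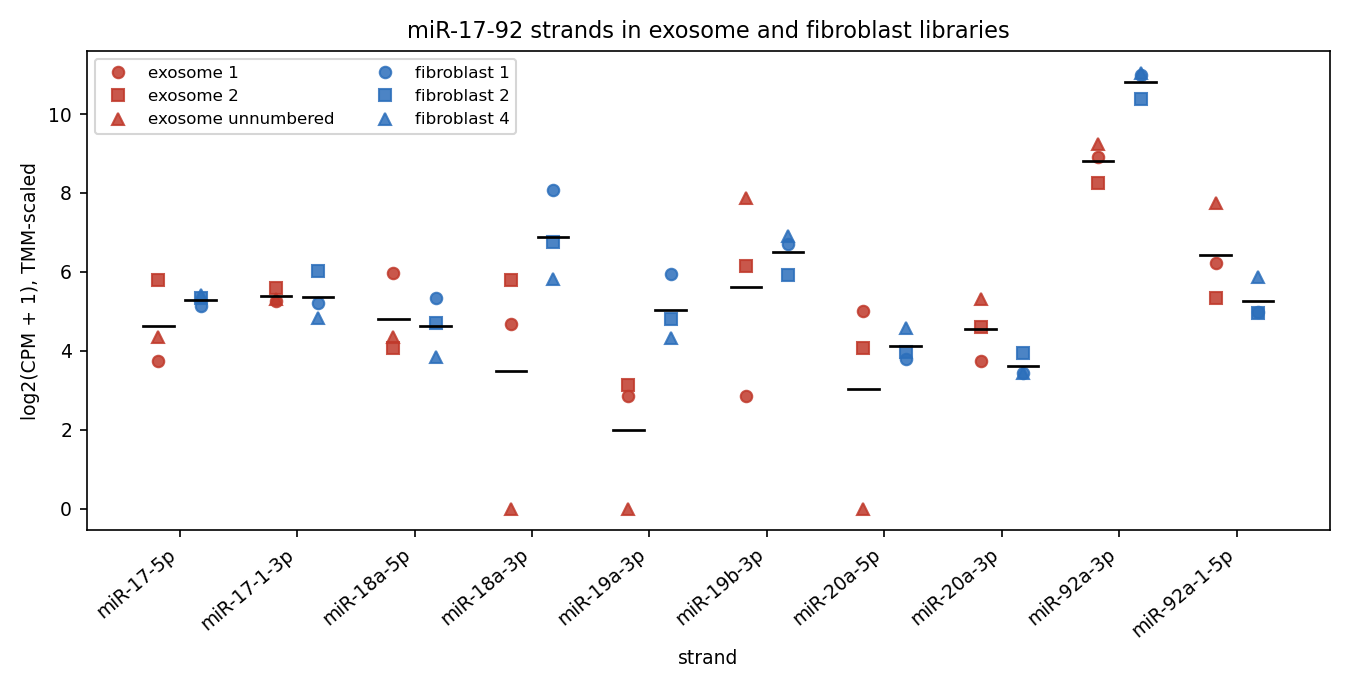
Level of each strand as log2(CPM + 1), TMM-scaled, with exosome libraries in red on the left, fibroblast libraries in blue on the right and a black bar at the mean of the 3 libraries. miR-92a-3p is highest in both groups, and miR-18a-3p, miR-19a-3p and miR-20a-5p sit at 0 in the unnumbered exosome library.

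The comparison of exosomes with their parent cells asked which strands differed in relative abundance. By edgeR's quasi-likelihood test, adjusted after Benjamini and Hochberg over 698 tested miRNAs, exosomes had less of 1 of the 10 strands and more of 0. Of all tested miRNAs, 18.6% were lower and 11.3% higher, so the cluster's share of calls was not above this background. An unadjusted p below 0.05 was reached by 263 of the 698 miRNAs and by 4 of the 10 strands, miR-18a-3p, miR-19a-3p, miR-92a-3p and miR-92a-1-5p. The median log2 fold change was -0.08 for the 10 strands and -0.15 for all tested miRNAs.

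The strand that passed was miR-18a-3p, from the arm opposite the strand named here as the miR-18a guide. In fibroblasts it was the more abundant arm, since miR-18a-5p had 242, 627 and 26 counts in libraries 1, 2 and 4. miR-18a-3p had 4, 7 and 0 counts in exosome libraries 1, 2 and unnumbered, against 1652, 2651 and 107 in fibroblast libraries 1, 2 and 4. In CPM these were 24.8, 54.8 and 0 in exosomes, against 268, 107 and 55.3 in fibroblasts. The groups did not overlap, but the highest exosome value nearly met the lowest fibroblast value, and fibroblast library 1 stood far above the other two. miR-18a-3p was 4.64-fold lower in exosomes (log2 fold change -2.21, SE 0.70, edgeR adjusted p = 0.00816). The call rested on single libraries: without exosome library 1 the edgeR adjusted p was 0.0544, and without fibroblast library 1, with the same miRNAs tested, it was 0.122. Its direction turned, to 0.48 on the log2 scale, with library sizes taken as total counts without miR-873-3p, where the median of all tested miRNAs moved to 2.37. Over all alternatives run its adjusted p lay between 0.000197 and 0.661.

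miR-92a-3p lay below fibroblasts in every exosome library, at 483, 306 and 603 CPM in exosomes against 2030, 1330 and 2120 CPM in fibroblasts. It did not pass the edgeR test (log2 fold change -1.99, SE 0.88, 95% interval -3.72 to -0.26, adjusted p = 0.072). Its adjusted p lay between 0.000909 and 0.429 over the alternatives, and DESeq2 called it with an adjusted p = 0.00239. The 0.429 came with total counts without miR-873-3p, where its log2 fold change turned to 0.60. edgeR did not call it without exosome library 1 (adjusted p = 0.177), exosome library 2 (0.215), the unnumbered exosome library (0.0504) or fibroblast library 1 (0.0994). Without fibroblast library 2 edgeR called it (adjusted p = 0.0174), as it did without fibroblast library 4 (adjusted p = 0.0391, or 0.0966 with the same miRNAs tested).

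miR-19a-3p, a guide of the miR-19 family, had 1, 1 and 0 counts in exosomes, against 376, 667 and 37 in the far deeper fibroblast libraries. As a share of all counts this was 0.000832%, 0.000884% and 0% in exosomes, against 0.0059%, 0.00533% and 0.00152% in fibroblasts. Its log2 fold change was -2.63 (SE 1.11, 95% interval -4.80 to -0.46), and the edgeR adjusted p of 0.0572 missed the threshold of 0.05; the range over the alternatives was 0.00422 to 0.985. With total counts without miR-873-3p its log2 fold change was 0.04. A count of 0 in the unnumbered exosome library allows a share of up to 0.00252% (3 counts of the total), whereas miR-19a-3p made up 0.00152% of fibroblast library 4. For that exosome library, a level as low as in fibroblast library 4 was within what a count of 0 allows. In all, miR-18a-3p, miR-19a-3p and miR-92a-3p, 3 of the 10 strands, lay below fibroblasts without overlap, where 24.6% of all tested miRNAs did so. None of the 10 lay above without overlap, where 14.8% of all tested miRNAs did.

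miR-19b-3p, which shares its seed with miR-19a-3p, had an SD above its mean among exosome libraries, 117 against 103 CPM. It had 1, 9 and 12 counts in exosome libraries 1, 2 and unnumbered, against 635, 1473 and 230 in the fibroblast libraries, or 6.19, 70.5 and 233 CPM against 103, 59.2 and 119 CPM. In CPM the unnumbered exosome library was above all fibroblast libraries and exosome library 1 below all of them. As a share of all counts the unnumbered library, at 0.0101%, lay below fibroblast library 2, at 0.0118%. Its log2 fold change was -0.11 (95% interval -1.38 to 1.15) and was not called by edgeR (adjusted p = 0.914). Without the unnumbered exosome library it was -1.44, and without exosome library 1 it was 0.50.

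The guides with the seed AAAGUGC were rare. miR-17-5p had 2, 7 and 1 counts in exosomes and 210, 976 and 81 in fibroblasts, and its fold change had a 95% interval of -1.86 to 1.12 on the log2 scale. miR-20a-5p had 5, 2 and 0 counts in exosomes and 79, 367 and 44 in fibroblasts, with an interval of -1.66 to 2.06. miR-18a-5p, with 10, 2 and 1 exosome counts and 242, 627 and 26 fibroblast counts, had an interval of -1.06 to 1.94. Each of these intervals spans changes of more than 2-fold in both directions, so these counts do not show that the guides were equally abundant in exosomes and cells.

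Of the opposite strands, miR-17-1-3p had 6, 6 and 2 exosome counts and 224, 1580 and 53 fibroblast counts, with a log2 fold change of -0.05 (95% interval -1.42 to 1.31). miR-20a-3p had 2, 3 and 2 exosome counts and 61, 361 and 19 fibroblast counts, with a log2 fold change of 0.93 (95% interval -1.04 to 2.90). miR-92a-1-5p had 12, 5 and 11 exosome counts and 189, 743 and 112 fibroblast counts, or 74.3, 39.2 and 214 CPM against 30.6, 29.9 and 57.9 CPM. Of these strands it had the highest fold change, 1.31 on the log2 scale (SE 0.63), which edgeR did not call (adjusted p = 0.103); it overlapped through exosome library 2 and its value was 0.44 without the unnumbered exosome library.

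**Figure D2:**
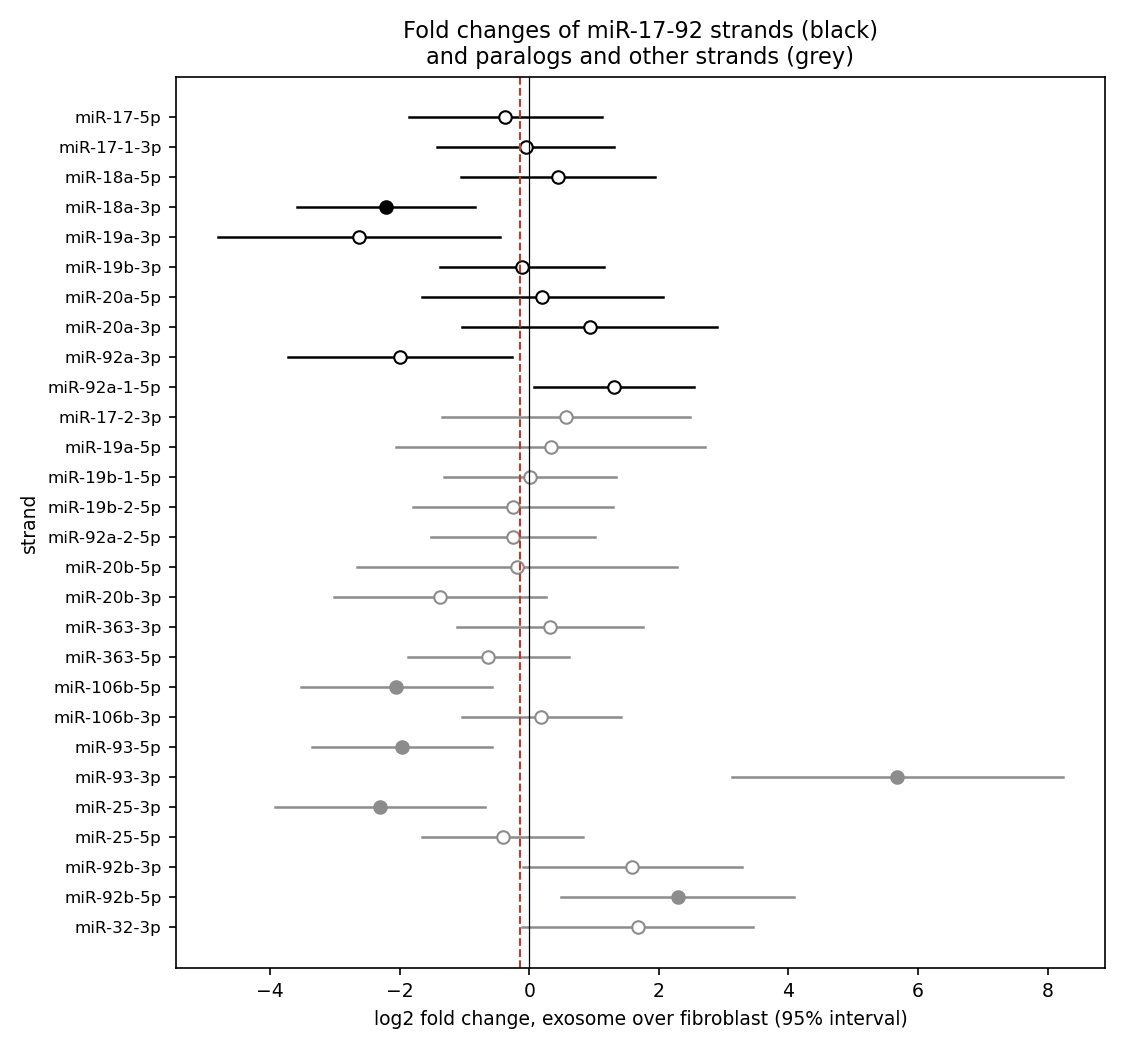
Log2 fold change of exosomes over fibroblasts with its 95% interval for the 10 cluster strands (black) and 18 paralogous and other strands (grey); filled points passed the edgeR test, the red dashed line is the median of all tested miRNAs at -0.15. Among the cluster strands only miR-18a-3p is filled, and the intervals of most others cross 0.

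In the authors' deposited table, which gives fibroblasts over exosomes, 0 of the 10 strands had an adjusted p below 0.05, against 7.28% of the 728 miRNAs. That table's log2 ratio of fibroblasts over exosomes was 1.94 for miR-92a-3p (adjusted p of 0.503) and 2.64 for miR-18a-3p (adjusted p of 0.943).

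Ratios between strands of the same library do not depend on the scaling between libraries. miR-92a-3p made up 64.5% (95% Clopper-Pearson interval 55.2 to 73), 48.1% (36.9 to 59.5) and 51.7% (38.4 to 64.8) of the counts of the 10 strands in exosome libraries 1, 2 and unnumbered. It made up 77.4%, 77.8% and 85.3% in fibroblast libraries 1, 2 and 4. The means were 54.8% ± 8.59 in exosomes and 80.1% ± 4.44 in fibroblasts (SD, n = 3 each), without overlap. miR-92a-1-5p, from the opposite arm of the same hairpin, made up 11.5% ± 6.23 in exosomes and 1.75% ± 0.581 in fibroblasts, also without overlap. The shares of miR-18a-5p (4.13% ± 3.6 in exosomes, 1.17% ± 0.545 in fibroblasts) and miR-20a-3p (2.9% ± 1.09 in exosomes, 0.54% ± 0.267 in fibroblasts) were likewise higher in exosomes without overlap. They rest on 10, 2 and 1 exosome counts of miR-18a-5p and 2, 3 and 2 of miR-20a-3p. A lower share of miR-92a-3p by itself raises the shares of the other strands. In CPM miR-92a-1-5p, miR-18a-5p and miR-20a-3p all overlapped between the groups. How often such shares separate over all miRNAs was not examined. Guides together held 76.4% ± 3.28 of the exosome and 89.4% ± 3.93 of the fibroblast counts of the 10 strands. Of the guides other than miR-92a-3p, only miR-19a-3p had a lower mean share in exosomes (0.687% against 1.55%). The lower guide share in exosomes thus lay mainly in miR-92a-3p and was not a trait of the guides in general. These shares were compared after their values had been seen and are given as a description, with no test.

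**Figure D3:**
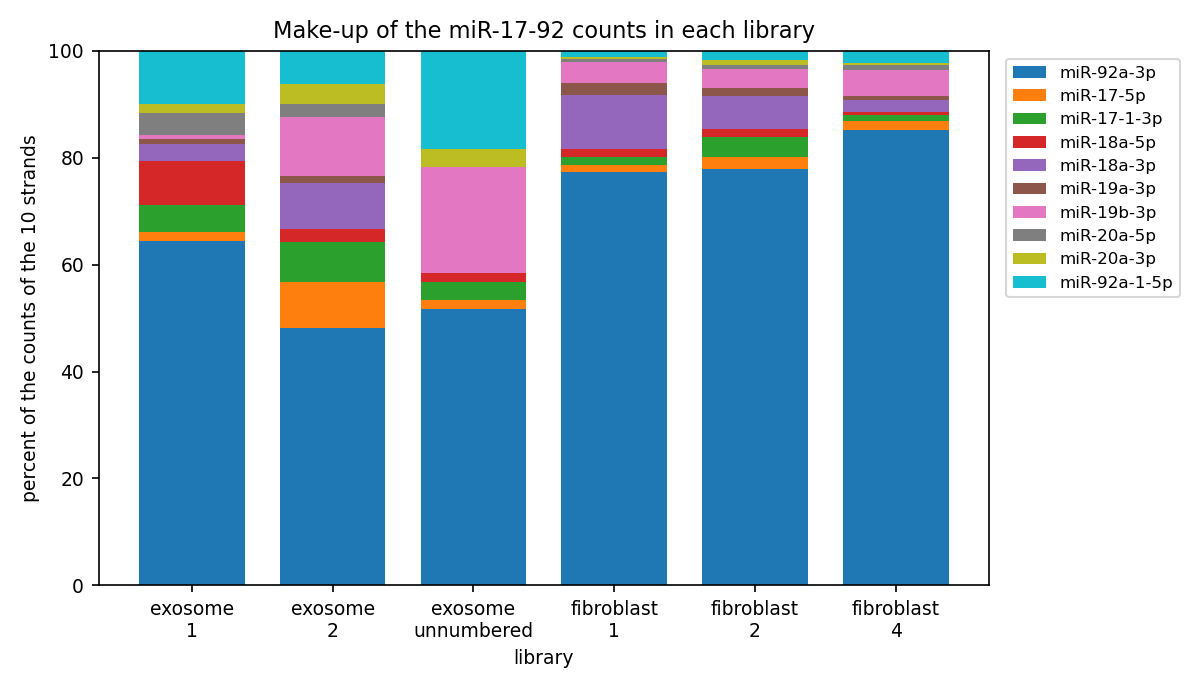
Percent of the summed counts of the 10 strands held by each strand, 1 bar per library, exosome libraries left of fibroblast libraries. miR-92a-3p takes 48.1% to 64.5% of each exosome bar and 77.4% to 85.3% of each fibroblast bar.

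The use of the arms was compared in the 6 hairpins, as log2 of 5p over 3p counts with 1 added to each. The hairpins of miR-18a and miR-92a-1 are shown, 5′ to 3′, since their arm ratios differed most between the groups; capitals mark the mature strands, the 5p strand first.
Mir18a, chr15:98587984-98588079, plus strand, GRCr8: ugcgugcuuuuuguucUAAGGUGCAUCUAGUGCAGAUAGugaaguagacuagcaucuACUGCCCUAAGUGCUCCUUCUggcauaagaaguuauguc
Mir92a1, chr15:98588555-98588632, plus strand, GRCr8: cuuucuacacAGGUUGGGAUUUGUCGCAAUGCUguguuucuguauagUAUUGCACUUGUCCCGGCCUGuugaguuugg

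In fibroblasts the 3p strand of miR-92a-1 outnumbered the 5p strand strongly, with log2 ratios of 5p over 3p of -6.04, -5.48 and -5.18. In exosomes the ratios were -2.60, -2.74 and -1.42, higher than in fibroblasts by 3.32 on the log2 scale. Since miR-92a-3p also comes from the X-linked copy, this ratio is not of 1 hairpin alone. For miR-18a the exosome ratios were 1.14, -1.42 and 1.00, against -2.77, -2.08 and -2.0 in fibroblasts, a difference of 2.52. The exosome counts of both miR-18a strands were at most 10. The ratio of 1.00 in the unnumbered exosome library rests on 1 count of the 5p strand and 0 of the 3p strand, so the added 1 largely sets it. For miR-19a the exosome counts were 2, 2 and 0 for the 5p strand and 1, 1 and 0 for the 3p strand. The ratio of its unnumbered exosome library is therefore set by the added 1 alone, and its arms are not compared between the groups.

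The ratios of miR-18a and miR-92a-1 did not overlap between the groups, and each gave p = 0.1 in the two-sided exact permutation test, a value no 3 against 3 libraries can go below (0.2 after Benjamini-Hochberg adjustment over 6 hairpins). In both, the arm scarcer in fibroblasts was relatively more abundant in exosomes. The same held without overlap for 39.6% of 268 hairpins of the whole table with both arms listed, and the opposite for 5.97%. The median difference over those hairpins was 1.19 on the log2 scale. The arm was picked as the scarcer one in fibroblasts, and adding 1 draws ratios of low exosome counts towards 0, so these background values hold a shift of unknown size that needs no change in arm use. The ratios of miR-17, miR-20a and miR-19b-1 overlapped between exosomes and fibroblasts, with differences of -0.48, -0.85 and 0.54 and exact permutation p of 0.5, 0.4 and 0.8.

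**Figure D4:**
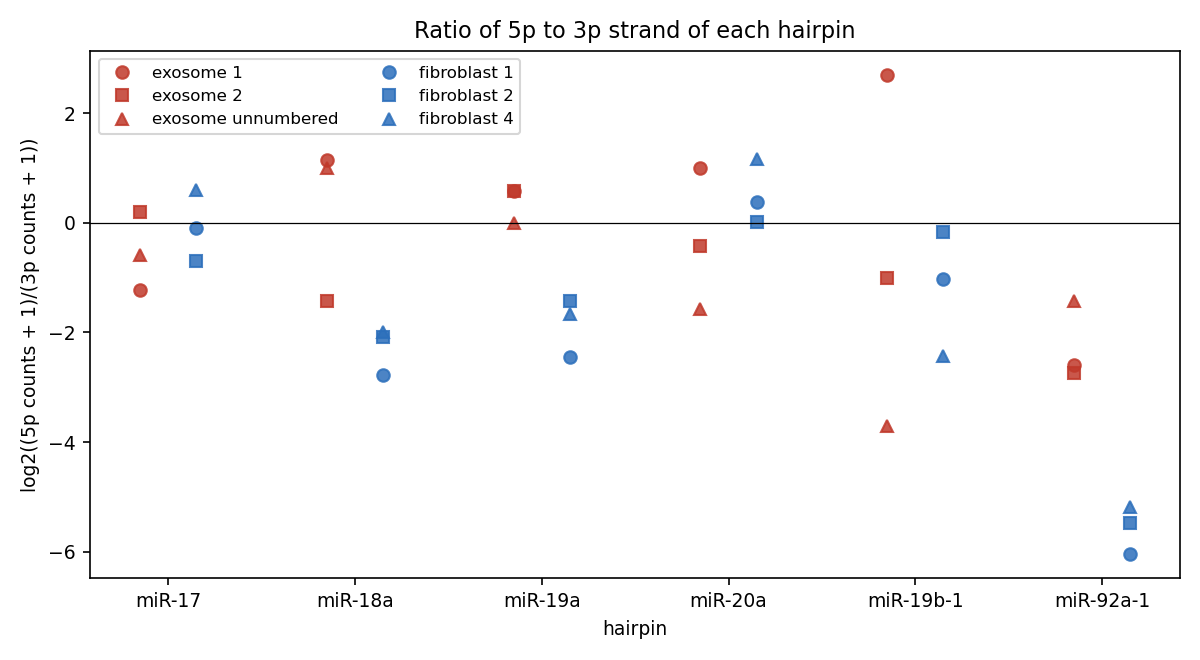
Log2 ratio of 5p to 3p counts, with 1 added to each, for each hairpin; exosome libraries in red stand left of fibroblast libraries in blue. The red points of miR-18a and miR-92a-1 lie above all blue points of the same hairpin, those of miR-17, miR-20a and miR-19b-1 overlap the blue ones, and 1 red point of miR-19a, at 0, comes from a library with 0 counts on both arms.

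Strands from outside the cluster that are its copies, share its seeds or come from its remaining arms were read from the same fit. Of 18 such tested strands 3 were lower and 2 higher in exosomes, with a median log2 fold change of -0.09. Of all tested miRNAs 18.6% were lower and 11.3% higher, with a median of -0.15, so the share of calls among these strands was not above this background. Those lower were the guides of the related cluster on chromosome 12, miR-106b-5p (log2 fold change -2.05, SE 0.75), miR-93-5p (-1.97, SE 0.71) and miR-25-3p (-2.31, SE 0.83), with edgeR adjusted p of 0.0246, 0.0218 and 0.0207; with total counts without miR-873-3p the 3 values turned positive. The 2 higher were miR-93-3p (log2 fold change 5.68, SE 1.3, edgeR adjusted p = 0.00019) and miR-92b-5p (2.29, SE 0.92, 0.0425). miR-93-3p was called in each fit that left out 1 library. Each of the other 4 calls was lost without some library, mostly at fold changes near those above: without exosome library 2 the log2 fold change was -1.80 for miR-106b-5p (edgeR adjusted p = 0.144), -2.04 for miR-93-5p (0.129), -2.49 for miR-25-3p (0.11) and 2.0 for miR-92b-5p (0.175). Without exosome library 1 that of miR-106b-5p moved to -4.05 and stayed called (edgeR adjusted p = 0.015). Without exosome library 1 the edgeR adjusted p was 0.151 for miR-93-5p, 0.0652 for miR-25-3p and 0.0679 for miR-92b-5p, and without the unnumbered one 0.0672 for miR-106b-5p and 0.158 for miR-92b-5p. Without fibroblast library 1, with the same miRNAs tested, it was 0.0987, 0.0841, 0.0671 and 0.341 for these 4 in the order first given, and without fibroblast library 2 it was 0.0624 for miR-106b-5p and 0.259 for miR-92b-5p. miR-106b-5p was also not called with total counts (edgeR adjusted p = 0.13) or by DESeq2 (0.0709). miR-92b-5p was not called with no filter (edgeR adjusted p = 0.068), with the filter on raw counts (0.0685), with the reads behind the normalized table (0.0746) or with reads outside the listed miRNAs as library sizes (0.248).

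Strands that differ between the 2 genomic copies of the cluster were counted for both copies in fibroblasts. So was nearly every listed miRNA: 728, 728 and 725 of the 728 had a count in fibroblast libraries 1, 2 and 4. The median counts per miRNA there were 318.5, 1509 and 107.5. The counts below therefore do not by themselves show that both copies were active. miR-17-1-3p, of the chromosome 15 copy, had 224, 1580 and 53 fibroblast counts, and miR-17-2-3p, of the X-linked copy, had 64, 587 and 12. miR-19b-1-5p of chromosome 15 had 311, 1312 and 42, and miR-19b-2-5p of the X chromosome 162, 1081 and 51. The miR-92a hairpins gave 189, 743 and 112 counts of miR-92a-1-5p and 418, 1454 and 139 counts of miR-92a-2-5p. In exosome libraries 1, 2 and unnumbered miR-92a-1-5p had 12, 5 and 11 counts and miR-92a-2-5p 7, 7 and 4. These X-linked strands and their partners were chosen after their values had been seen. The X-linked copy also encodes miR-20b and miR-363, of which miR-20b-5p had 0, 1 and 2 exosome counts and 63, 437 and 11 fibroblast counts.

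Within the AUUGCAC seed family the leading miRNA differed between exosomes and fibroblasts. The family held 5 listed miRNAs, of which 3 carried most reads and are shown with the seed in capitals:
rno-miR-92a-3p: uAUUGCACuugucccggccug
rno-miR-92b-3p: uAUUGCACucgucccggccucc
rno-miR-25-3p: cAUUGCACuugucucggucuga
From the base of miR-92a-3p to that of miR-92b-3p, over the length they share, the differences were U10C and G21C. miR-92a-3p made up 22.3% (95% Clopper-Pearson interval 18.1 to 27.1), 16.6% (12.1 to 22) and 16.7% (11.6 to 22.8) of the family's counts in exosome libraries 1, 2 and unnumbered, against 51.1%, 55.7% and 44.2% in the fibroblast libraries. miR-92b-3p, encoded by a separate hairpin on chromosome 2, made up 68.8% ± 5.92 of the family in exosomes and 16.1% ± 1.27 in fibroblasts (SD, n = 3 each). There were 0.358, 0.238 and 0.225 counts of miR-92a-3p for each count of miR-92b-3p in exosomes, against 3.24, 3.19 and 2.96 in fibroblasts. The ratio was alike within each group and far apart between the groups. These strands too are near-identical, so the authors' counting may have divided reads between them, and their separate values are uncertain. How often ratios between miRNAs separate the groups over the whole table was not examined. miR-92b-3p itself had 218, 164 and 138 exosome counts and 3865, 10374 and 1388 fibroblast counts; its log2 fold change of 1.59 (SE 0.86) was not called by edgeR (adjusted p = 0.165). By contrast, miR-92a-3p kept to miR-25-3p a ratio of 1.56, 1.5 and 2.38 in exosomes and 1.6, 2.22 and 1.1 in fibroblasts, which overlapped. This family comparison was chosen after the values had been seen and carries no test.

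**Figure D5:**
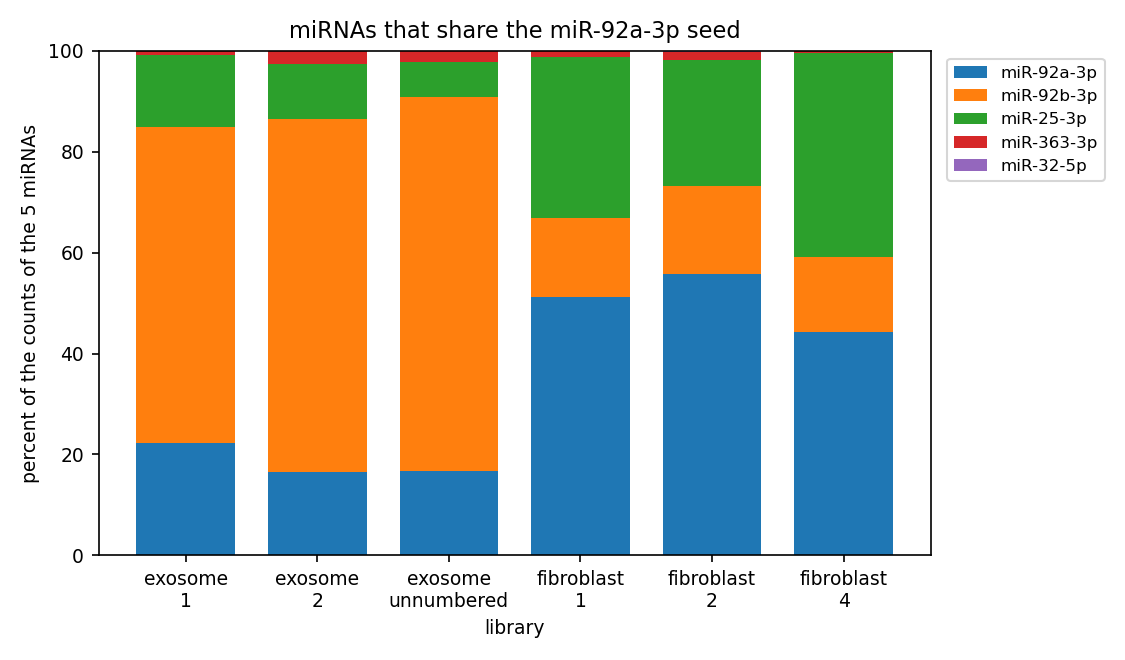
Percent of the counts of the 5 listed miRNAs with the seed AUUGCAC, 1 bar per library, exosome libraries left of fibroblast libraries. miR-92b-3p leads in the exosome bars and miR-92a-3p in the fibroblast bars; miR-32-5p had 0 exosome counts.

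In the AAAGUGC family miR-93-5p led in both groups, with 57.2% ± 18.6 of the family's counts in exosomes and 73.4% ± 9.61 in fibroblasts (SD, n = 3 each), overlapping between the groups. miR-17-5p and miR-20a-5p together held 26.7% ± 19 in exosomes and 10.2% ± 3.65 in fibroblasts, on 25, 20 and 14 exosome counts of the whole family. miR-19a-3p and miR-19b-3p were the whole listed GUGCAAA family, and miR-18a-5p was the whole listed AAGGUGC family.

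The miRNAs whose profile over the 6 libraries was most like the sum of the 10 strands were miR-186-5p (Pearson's r of log2 CPM 0.997), miR-30d-5p (0.996), miR-214-3p (0.995), miR-3586-3p (0.993) and let-7b-5p (0.992). The points share library and depth and fall into the 2 groups, so these values describe mainly the step between exosomes and fibroblasts. miR-186-5p had 20, 12 and 19 exosome counts and 14310, 28330 and 4942 fibroblast counts.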

How the data were processed

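Small RNA libraries of 3 exosome and 3 fibroblast samples were analysed. The deposited tables are raw counts for each mature miRNA, a second table of normalized signal (reads divided by 1 size factor per library, from its values, all within 0.05 of whole reads; these reads were 99.3% to 99.8% of the raw counts), and a comparison with mean normalized signal, a fold ratio, its log2 value, p-values and adjusted p-values, per the file headers. The submitters' processing notes name CASAVA 1.8.2, cutadapt 1.2.1, DESeq and the genome build rn5; the sources used here do not give the aligner, counting rule or miRNA release. The deposited tables hold no coordinates; those printed are RefSeq's on GRCr8. The entry called rest, not a miRNA, held 77.2% to 84.4% of exosome and 63.1% to 82.4% of fibroblast reads of the normalized table and was left out of tests.

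The count test was that of edgeR 4.0.16 (R 4.3.3). A filter by filterByExpr, with 10 as its minimum count and 15 as its minimum total, removed 30 of 728 miRNAs. TMM scaling came next, then the two-sided quasi-likelihood test on group and Benjamini-Hochberg adjustment at 0.05. This was tested on simulated data. The filter works on CPM, so that few exosome reads suffice to pass it. With 0 counts in the unnumbered exosome library, miR-18a-3p, miR-19a-3p and miR-20a-5p could not have passed it on exosome libraries alone. With no filter miR-18a-3p was called at -2.44 on the log2 scale (edgeR adjusted p = 0.00465). Standard errors are the fold change over the square root of F, and intervals use the fit's degrees of freedom. Arm ratios used exact two-sided permutation tests. Alternatives were other scalings, filters, DESeq2 1.42.0, the reads behind the normalized table, the replicate block and leaving out each library. Named were all cluster strands, called paralogs, the leading paralog of each shared seed and the 5 miRNAs of most similar profile. Members and lists were chosen with earlier results of these data known.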

Additional observations from a re-analysis of the deposited data

How the results depend on the processing

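Fold changes are relative to the scaling. Over all tested miRNAs the median moved to -0.57 on the log2 scale with total counts, 2.37 with total counts without miR-873-3p and -1.14 with reads outside the listed miRNAs as library sizes, and the median of the 10 strands minus that of all tested miRNAs stayed between -0.19 and 0.13 in the 20 fits that tested all 10. Of all miRNAs 43 were higher with total counts, against 79 at first; 36 were lower and 378 higher with total counts without miR-873-3p, and 237 and 31 with reads outside the listed miRNAs. Of the 10 strands 0 were lower and 5 higher with total counts without miR-873-3p (696 miRNAs tested), and 3 lower with reads outside the listed miRNAs (683 tested). With no filter, 10 raw counts in 2 libraries of a group, DESeq2 and the reads behind the normalized table, 2 strands were lower. In these 4 fits, in this order, 148 of 728, 147 of 727, 121 of 698 and 144 of 694 miRNAs were lower. The strand counts are therefore not read as a trait of the cluster. The cause of these moves was not tested beyond the scaling itself.

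With total counts miR-18a-3p was -2.44 (not called), miR-92a-3p -2.33 (called) and miR-20a-5p -0.01. With total counts without miR-873-3p the values were 2.23 for miR-17-5p, 2.33 for miR-17-1-3p, 3.01 for miR-18a-5p, 0.48 for miR-18a-3p, 0.04 for miR-19a-3p, 2.38 for miR-19b-3p, 3.36 for miR-20a-3p, 0.60 for miR-92a-3p and 3.82 for miR-92a-1-5p, and 0.49, 0.60 and 0.51 for miR-106b-5p, miR-93-5p and miR-25-3p. With reads outside the listed miRNAs they were -0.65 for miR-18a-5p, -3.71 for miR-19a-3p, -0.74 for miR-20a-5p, -0.11 for miR-20a-3p and -3.14 for miR-92a-3p. miR-19a-3p was called at -2.86 under both other filters and at -2.65 with the reads behind the normalized table, where miR-20a-5p was -0.04 each time. RLE scaling and DESeq2 put miR-17-1-3p at 0.04; DESeq2 put miR-19b-3p at 0.04 and miR-92a-3p at -1.95, called. The summed share, exosomes minus fibroblasts, went to 0.313 percentage points without miR-873-3p, against -0.19 with it.

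Leaving out each library in turn, also with the tested miRNAs kept (chosen after seeing the data), gave 81 to 139 miRNAs lower and 31 to 86 higher, 0 to 3 strands lower and 0 to 1 higher. Over these fits log2 fold changes ran from -1.64 to 0.12 for miR-17-5p, -0.39 to 0.12 for miR-17-1-3p, -0.80 to 0.83 for miR-18a-5p, -3.22 to -1.65 for miR-18a-3p, -3.13 to -2.26 for miR-19a-3p, -1.44 to 0.60 for miR-19b-3p, -0.85 to 0.51 for miR-20a-5p, -2.51 to -1.76 for miR-92a-3p and 0.44 to 1.77 for miR-92a-1-5p. Counts more than 1.5 times off were 81 and 86 lower and 31, 42 and 46 higher. The sign turned for miR-17-5p (0.12), miR-17-1-3p (0.04 to 0.12), miR-18a-5p (-0.80 to -0.62), miR-19b-3p (0.05, 0.08, 0.50 and 0.60) and miR-20a-5p (-0.85, -0.65, -0.24 and -0.13); the call of miR-18a-3p was lost at -2.23 to -1.65; and calls were gained by miR-92a-3p (-2.51, -2.15 and -1.94), miR-19a-3p (-2.97 to -2.91) and miR-92a-1-5p (1.64). Dropping a fibroblast library left only 359 to 414 miRNAs past the filter, and 3 or 4 of the strands. The arm difference of miR-19b-1 ran from -1.14 to 2.06 and turned at -1.14 and -0.07. The labels do not say whether libraries numbered 1 and 2 were paired between the groups. Correlations of their deviations were -0.07 and 0.16 for like numbers and 0.21 and -0.01 for unlike numbers, which does not settle this. With the replicate block on these libraries 3 strands and 142 of 724 miRNAs were lower, with miR-19a-3p at -2.65 and miR-92a-3p at -2.04. Without the block 3 strands and 146 of 724 miRNAs were lower, with these 2 at -2.63 and -2.06. miR-25-3p had an edgeR adjusted p of 0.056 with the block and 0.0175 without it. Low exosome counts limit every strand: miR-92a-3p had 148 exosome counts in all, and the other 9 strands together had 114.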
